A study of Mus musculus with 11 samples.

Results

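The genes described here are 9 markers of hippocampal subfields, followed in RNA bound to tagged ribosomes of young mice. They were taken by symbol from a table of 77179 gene IDs: Prox1, C1ql2, C1ql3, Dsp and Tdo2, which mark the dentate gyrus, Calb1, which marks the dentate gyrus and CA1, and Wfs1, Fibcd1 and Zbtb20, which mark CA1 pyramidal cells, with Zbtb20 also found in dentate granule cells. All 9 were found. Of these, 8 reached 1 TPM in 2 or more libraries and so were among the 19008 genes tested, and Dsp did not.

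The study drove an eGFP-tagged ribosomal protein, Rpl10a, in cells that have expressed Cre from the NEX (Neurod6) gene, a driver of cortical and hippocampal excitatory neurons, on a C57BL/6J background. The immunoprecipitated (IP) groups came from NEX-Cre;Rpl10aeGFP/eGFP mice and were made with anti-GFP beads, 3 libraries an age, 7 days after birth (P7), 14 days after birth (P14) and 21 days after birth (P21). The input group was whole-tissue RNA at P7 from 2 libraries, replicate 1 from NEX-Cre;Rpl10aeGFP/eGFP tissue and replicate 2 from Rpl10aeGFP/eGFP tissue without Cre, so both groups carry the reporter allele. Among the 11 libraries there is no input at P14 or P21, so changes over age cannot be set beside whole tissue. Whether a library holds 1 animal or several is not stated. Cortex and hippocampus were lysed together, so each value is a level over both tissues and not over 1 subfield. Neurod6 itself averaged 152 ± 13.4 TPM in P7 IP (SD, n = 3) and 112 ± 32.6 TPM in P7 input (SD, n = 2). The 2 inputs ranged from 89.1 to 135 TPM. They differ in the Cre expressed from this gene, and its part in the Neurod6 level was not tested. Slc1a3, a glutamate transporter that marks astrocytes, averaged 12.9 TPM in P7 IP against 148 TPM in P7 input.

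The hippocampus is built of the dentate gyrus, whose granule cells send mossy fibres to CA3, and of CA3, CA2 and CA1 pyramidal cells. Granule cells are born and mature largely after birth in the mouse, later than most pyramidal cells, and subfield markers come on at different stages of that maturation. Several of these markers are not confined to the hippocampus: Calb1 and Wfs1 are also found in upper cortical layers, Prox1 and Calb1 in inhibitory neurons, and Zbtb20 in astrocytes.

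Between P7 and P21 the 9 genes followed 3 courses in ribosome-bound RNA. C1ql2, C1ql3, Calb1, Wfs1 and Fibcd1 rose, Tdo2 fell, and no change passed the test for Prox1 or Zbtb20. Dsp, too low for the main test, was higher in every P21 library than in every P7 library. Values are TPM, a share of all transcripts in a library, corrected for transcript length. Changes are differences of log2(TPM + 1), tested with limma over all 19008 genes and called at a Benjamini-Hochberg adjusted p below 0.05, and a change on that scale understates the ratio of low genes.

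**Figure D1:**
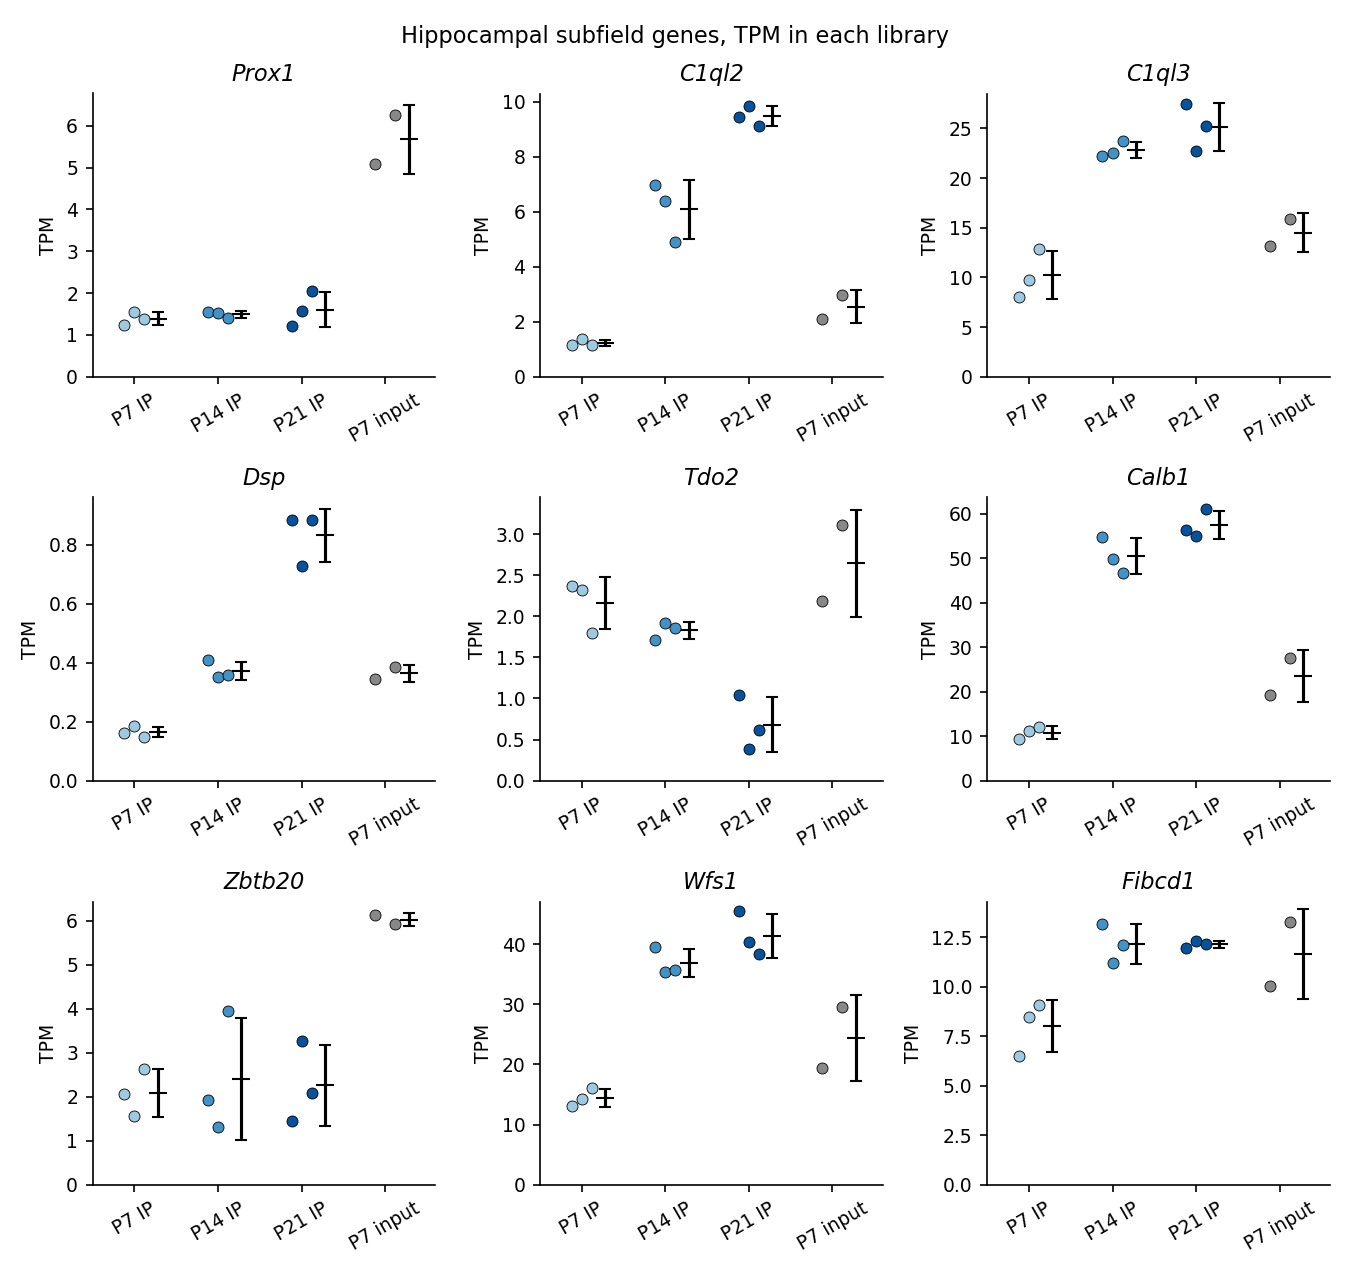
TPM of each of the 9 hippocampal subfield genes (y axis, 1 panel a gene, linear from 0) in P7, P14 and P21 IP and in P7 input libraries (x axis); dots are libraries, bars are means with SD (n = 3 for each IP group, n = 2 for input). Calb1, C1ql2, C1ql3 and Wfs1 are lowest in P7 IP and higher at P14 and P21, Tdo2 is lowest at P21, and Prox1 stays between 1.22 and 2.04 TPM in all 9 IP libraries, below both inputs.

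C1ql2 (ENSMUSG00000036907) encodes a secreted C1q-domain protein that granule cells release at mossy fibre synapses. It had 1.16, 1.37 and 1.15 TPM in the P7 IP libraries, 6.95, 6.40 and 4.89 TPM in the P14 IP libraries and 9.44, 9.86 and 9.11 TPM in the P21 IP libraries, beside 2.11 and 2.99 TPM in P7 input. No 2 ages overlapped, and all P7 IP libraries were below both inputs. The P14 mean was 4.97 times the P7 mean and the P21 mean 7.73 times, the largest ratio of the 9 genes between P21 and P7. C1ql2 rose by 1.66 on the log2 scale between P7 and P14 (SE 0.13, adjusted p = 2.75e-06, limma) and by a further 0.58 between P14 and P21 (SE 0.13, adjusted p = 0.00757, limma). With a pseudocount of 5 TPM the P14 minus P7 change of C1ql2 was 0.83, still called.

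C1ql3 (ENSMUSG00000049630) encodes the related ligand made by granule cells and by many cortical neurons. Its levels were 8.07, 9.74 and 12.9 TPM in P7 IP, 22.3, 22.5 and 23.7 TPM in P14 IP and 27.5, 22.7 and 25.3 TPM in P21 IP, beside 13.1 and 15.9 TPM in P7 input. Every P14 and P21 library was above every P7 IP library, while P14 and P21 overlapped. C1ql3 was 1.11 higher at P14 than at P7 (SE 0.14, adjusted p = 7.76e-05, limma), and 0.13 higher at P21 than at P14, which did not pass the test (SE 0.14, adjusted p = 0.526, limma). C1ql3 overlaps the annotated gene Pter, named here because of that overlap, which averaged 15.3, 37.6 and 42.2 TPM in P7, P14 and P21 IP and 18.6 TPM in P7 input. Use of strand in the counting is not given, so reads of overlapping transcripts may not have been told apart, and their part in the C1ql3 change was not tested.

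C1ql2 grew as a share of C1ql3. Cortical neurons also make C1ql3 and both tissues were lysed together, so this ratio is not the balance of these ligands at mossy fibres. Reads of Pter may enter it too. C1ql2 was 12.4 ± 3.06% of C1ql3 in P7 IP, 26.7 ± 5.49% in P14 IP and 38.0 ± 4.78% in P21 IP (SD, n = 3 each), and 17.5 ± 1.91% in P7 input (SD, n = 2). The highest P7 IP library, at 14.3%, was below the lowest P14 library, at 20.6%, and the highest P14 library, at 31.2%, was below the lowest P21 library, at 34.4%.

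Prox1 (ENSMUSG00000010175) encodes the homeobox factor that sets and keeps granule cell identity. It had 1.24, 1.55 and 1.38 TPM in P7 IP, 1.55, 1.53 and 1.40 TPM in P14 IP and 1.22, 1.56 and 2.04 TPM in P21 IP, beside 5.09 and 6.27 TPM in P7 input. The 3 ages overlapped, and both inputs were above all 9 IP libraries. The change between P7 and P21 was 0.12 (95% interval -0.16 to 0.40, adjusted p = 0.456, limma), so the interval leaves room for a small rise or fall. Prox1 overlaps Prox1os, a noncoding RNA named for the opposite strand and given here because of that overlap, which averaged 2.35, 2.14 and 2.65 TPM in P7, P14 and P21 IP and 2.81 TPM in P7 input, a level above that of Prox1 in the IP groups.

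Dsp (ENSMUSG00000054889) encodes desmoplakin, which ties desmosomes to intermediate filaments and is a marker of granule cells in the mouse. It stayed under 1 TPM in every library, with 0.162, 0.185 and 0.149 TPM in P7 IP, 0.408, 0.353 and 0.358 TPM in P14 IP and 0.883, 0.729 and 0.885 TPM in P21 IP, beside 0.344 and 0.385 TPM in P7 input. The 3 ages did not overlap, and the P21 mean was 5.04 times the P7 mean. With no filter on low values, a fit over 48047 genes gave Dsp a change of 0.65 at P21 against P7 (adjusted p = 0.000171, limma). By week, Dsp changed by 0.42 at P21 against P14 (adjusted p = 0.0106, limma), while the 0.24 at P14 against P7 did not pass the test (adjusted p = 0.0677, limma).

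Tdo2 (ENSMUSG00000028011) encodes tryptophan 2,3-dioxygenase, which opens the kynurenine pathway of tryptophan breakdown. It had 2.37, 2.32 and 1.80 TPM in P7 IP, 1.71, 1.92 and 1.85 TPM in P14 IP and 1.04, 0.384 and 0.621 TPM in P21 IP, beside 2.18 and 3.11 TPM in P7 input. All P21 libraries were below all P7 and P14 IP libraries, and P7 and P14 overlapped. Tdo2 fell by 0.77 between P14 and P21 (SE 0.15, adjusted p = 0.00461, limma), and its P21 mean was 0.373 of the P14 mean. The difference between P14 and P7 was -0.16 and did not pass the test (SE 0.15, adjusted p = 0.428, limma). With pseudocounts of 0.1 and 5 TPM the P21 minus P14 change was -1.39 and -0.27, both still called.

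Dsp and Tdo2, both low, crossed over. Dsp was 7.69 ± 0.75% of Tdo2 in P7 IP, 20.5 ± 2.95% in P14 IP and 139 ± 52.7% in P21 IP (SD, n = 3 each), and 14.0 ± 2.33% in P7 input (SD, n = 2). The P21 libraries ranged from 84.8% to 190%, P21 IP replicate 1 being the lowest and the only P21 library with more Tdo2 than Dsp.

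Calb1 (ENSMUSG00000028222) encodes calbindin, a calcium-binding protein that buffers calcium in mature granule cells and superficial CA1 pyramidal cells. It had 9.29, 11.2 and 12.0 TPM in P7 IP, 54.8, 49.9 and 46.7 TPM in P14 IP and 56.3, 55.0 and 61.1 TPM in P21 IP, beside 19.3 and 27.6 TPM in P7 input. Each P14 library was above each P7 library, and each P21 library above each P14 library, the nearest by 55.0 against 54.8 TPM. Calb1 rose by 2.13 between P7 and P14 (SE 0.13, adjusted p = 6.85e-07, limma), a mean ratio of 4.66, and the further 0.18 between P14 and P21 did not pass the test (SE 0.13, adjusted p = 0.310, limma).

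Wfs1 (ENSMUSG00000039474) encodes wolframin, a protein of the endoplasmic reticulum membrane involved in calcium and protein-folding balance. Its levels were 13.1, 14.2 and 16.1 TPM in P7 IP, 39.6, 35.3 and 35.8 TPM in P14 IP and 45.5, 40.4 and 38.3 TPM in P21 IP, beside 19.4 and 29.5 TPM in P7 input. P14 and P21 overlapped and both stood clear of P7 IP. Wfs1 was 1.30 higher at P14 than at P7 (SE 0.13, adjusted p = 2.09e-05, limma), and the P21 minus P14 change of 0.16 did not pass the test (SE 0.13, adjusted p = 0.418, limma). Calb1 was 74.8 ± 3.65% of Wfs1 in P7 IP, 137 ± 5.13% in P14 IP and 140 ± 17.8% in P21 IP (SD, n = 3 each), and 96.4 ± 4.31% in P7 input (SD, n = 2), so the order of this pair turned round between P7 and P14.

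Fibcd1 (ENSMUSG00000026841) encodes a membrane protein with a fibrinogen-like domain that binds acetylated sugars, and it marks CA1. It had 6.51, 8.45 and 9.05 TPM in P7 IP, 13.2, 11.2 and 12.1 TPM in P14 IP and 11.9, 12.3 and 12.2 TPM in P21 IP, beside 10.1 and 13.3 TPM in P7 input. Its rise was the smallest of the 5 called, with a P14 mean 1.52 times the P7 mean and a change of 0.56 (SE 0.12, adjusted p = 0.00336, limma). The P14 and P21 means were 12.2 ± 0.994 and 12.1 ± 0.174 TPM (SD, n = 3 each).

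Zbtb20 (ENSMUSG00000022708) encodes a zinc-finger repressor needed for CA1 and hippocampal identity in the mouse. It had 2.06, 1.55 and 2.64 TPM in P7 IP, 1.93, 1.32 and 3.95 TPM in P14 IP and 1.45, 3.26 and 2.07 TPM in P21 IP, beside 6.14 and 5.92 TPM in P7 input. Its standard error, from the spread within all groups together, input included, was the largest of the 8 genes tested. The P21 minus P7 change was 0.06 (SE 0.27, 95% interval -0.55 to 0.67, adjusted p = 0.865, limma). The summed level of 11 astrocyte markers, cells that also make Zbtb20, ranged from 166 to 231 TPM in P7 IP, from 395 to 468 TPM in P14 IP and from 522 to 683 TPM in P21 IP, against 3337 to 3686 TPM in P7 input. The part of astrocytes in the Zbtb20 values was not tested. Zbtb20 spans 9 other annotated genes.

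Ordered by level, Wfs1 led in P7 IP, above Calb1, C1ql3 and Fibcd1, whose ranges overlapped from each to the next, then Tdo2 and Zbtb20, which overlapped, then Prox1 and C1ql2, which overlapped, with Dsp last. In P14 and P21 IP, Calb1, Wfs1, C1ql3, Fibcd1 and C1ql2 followed each other with no overlap between neighbours. C1ql2 therefore moved up from near the bottom to above Zbtb20 and Prox1. In P7 input, Wfs1 and Calb1 overlapped at the top and Zbtb20 and Prox1, which overlapped, stood above Tdo2 and C1ql2.

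The first comparison over age asks how the translated RNA of excitatory neurons changes as the forebrain matures. At P14 against P7, 5 of the 8 genes tested were higher and 0 were lower, with 0 lower at an unadjusted p below 0.05 as well (limma). Over all genes 26.7% were called higher and 22.8% lower. The median change of the 8 genes was 0.83, against 0.03 over all genes. Without overlap between libraries, 6 of the 9 genes were higher at P14, Dsp being the sixth, against 31.1% of all genes tested, and 0 were lower, against 26.7%. In bulk RNA of this kind, more cells of a type and more RNA per cell cannot be told apart.

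Between P14 and P21, C1ql2 was higher and Tdo2 lower, 1 gene in each direction of 8, where 8.53% of all genes were called higher and 19.7% lower. Without overlap, C1ql2, Calb1 and Dsp were higher and Tdo2 was lower, where 13.7% and 30.1% of all genes were. The median change was 0.09 for the 8 genes and -0.08 over all genes. Under median-of-ratios scaling the split over all genes turned to 14.4% higher and 12.0% lower, and under quantile normalisation it was 12.0% and 14.0%, while both calls on the subfield genes held. At P21 against P7, 5 of 8 were higher and 1 was lower, against 27.3% and 32.6% of all genes, with medians of 0.90 and -0.04. Without overlap, 6 of the 9 genes were higher and 1 was lower, against 29.3% and 34.7% of all genes. C1ql2 changed by 2.24 (SE 0.13, adjusted p = 1.40e-07, limma), Calb1 by 2.31 (SE 0.13, adjusted p = 1.04e-07, limma) and Tdo2 by -0.92 (SE 0.15, adjusted p = 0.000388, limma). The 3 age comparisons share libraries and are not independent of each other. Of the 8 genes, 6 differed over the ages in a moderated F test, where 62.6% of all genes did.

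**Figure D2:**
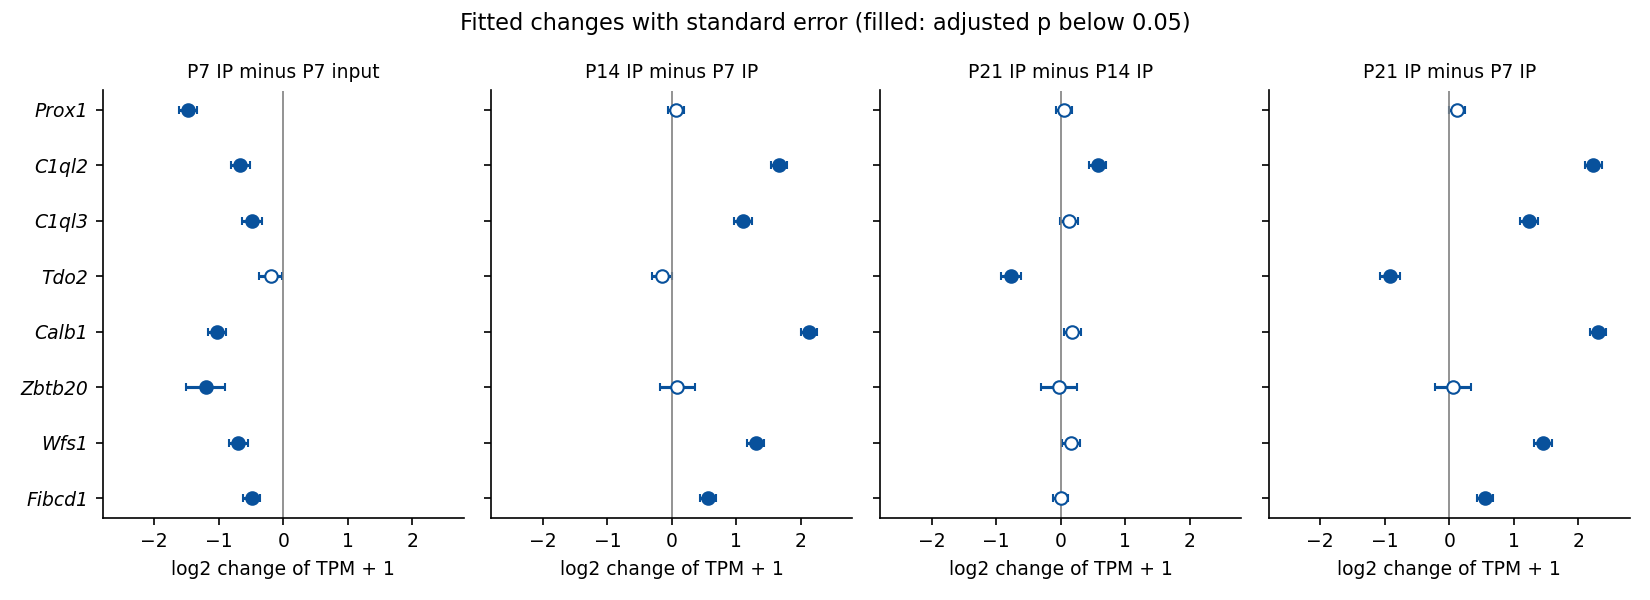
Change of log2(TPM + 1) with its standard error (x axis) for the 8 subfield genes tested (y axis), in P7 IP minus P7 input and in the comparisons between ages; filled symbols passed an adjusted p of 0.05 (limma). Calb1 and C1ql2 lie farthest to the right for P14 minus P7, at 2.13 and 1.66, and Tdo2 alone lies to the left past the threshold for P21 minus P14, at -0.77.

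For Calb1, Wfs1, C1ql2 and C1ql3 the change was larger in the first week than in the second. The P14-to-P21 change minus the P7-to-P14 change, tested as its own contrast, was lower for 4 of 8 genes, where 16.8% of all genes were called lower and 7.46% higher. It was -1.94 for Calb1 (SE 0.22, adjusted p = 0.000395, limma) and -1.14 for Wfs1 (SE 0.23, adjusted p = 0.00626, limma). For C1ql2 the value was -1.08 (SE 0.22, adjusted p = 0.00607, limma), so the later rise that passed the test was still smaller than the earlier one, and for C1ql3 it was -0.98 (SE 0.24, adjusted p = 0.0148, limma). The C1ql3 call was lost without P14 IP replicate 3 (adjusted p = 0.0545, limma) and with no filter on low values (adjusted p = 0.0513, limma). Tdo2 had a value of -0.61 that did not pass the test (adjusted p = 0.129, limma), and passed without P21 IP replicate 1 (-0.76, adjusted p = 0.0473, limma).

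Promoter sequence is shown for 4 genes: C1ql2, C1ql3 and Wfs1, which rose, and Tdo2, which fell. The window of Fibcd1, which also rose, is not shown. Each is 250 bases ending just before the RefSeq start of the gene on build GRCm38.p6, read 5′ to 3′ on the strand of the gene, and capitals mark letters of the motifs searched, on either strand. The windows are chr1:120340332-120340581 (plus strand) for C1ql2, chr2:13010865-13011114 (minus) for C1ql3, chr5:36988983-36989232 (minus) for Wfs1 and chr3:81975729-81975978 (minus) for Tdo2.
C1ql2: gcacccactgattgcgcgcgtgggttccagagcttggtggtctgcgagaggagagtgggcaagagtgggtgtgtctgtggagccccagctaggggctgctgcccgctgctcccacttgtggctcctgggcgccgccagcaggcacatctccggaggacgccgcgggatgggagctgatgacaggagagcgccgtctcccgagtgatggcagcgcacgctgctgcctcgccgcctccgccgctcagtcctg
C1ql3: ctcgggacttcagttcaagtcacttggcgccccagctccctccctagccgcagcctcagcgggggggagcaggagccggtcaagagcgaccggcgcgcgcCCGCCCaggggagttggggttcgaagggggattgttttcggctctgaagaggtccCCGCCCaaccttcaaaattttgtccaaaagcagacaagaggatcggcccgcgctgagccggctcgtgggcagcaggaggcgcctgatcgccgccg
Wfs1: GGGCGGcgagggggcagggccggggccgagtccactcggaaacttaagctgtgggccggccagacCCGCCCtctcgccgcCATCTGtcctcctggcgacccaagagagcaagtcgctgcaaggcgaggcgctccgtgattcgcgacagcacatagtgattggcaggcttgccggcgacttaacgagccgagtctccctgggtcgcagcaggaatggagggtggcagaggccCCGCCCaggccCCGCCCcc
Tdo2: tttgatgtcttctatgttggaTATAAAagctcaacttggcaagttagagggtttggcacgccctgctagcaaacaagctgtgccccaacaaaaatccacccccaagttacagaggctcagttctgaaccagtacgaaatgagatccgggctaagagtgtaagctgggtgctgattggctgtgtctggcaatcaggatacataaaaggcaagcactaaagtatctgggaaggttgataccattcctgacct

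The GC content of these windows was 68.8% for C1ql2, 66.4% for C1ql3, 69.6% for Wfs1 and 46.4% for Tdo2. It was not measured for other windows, so no difference between genes that rose and fell is read from it. The RefSeq promoter table held windows for 8 of the 9 genes, 9 windows in all, and none is given for Calb1. Prox1 had 2 of these windows. The GC box letters, GGGCGG, stood in 6 of the 9 windows and in 32.7% of all 32851 windows of that length. Both Prox1 windows were among the 6. Letters of the TATA box, which are TATAAA, stood in 2 of 9 windows and 12.4% of all, and the E-box of the kind bound by NeuroD factors, CAGATG, stood in 2 of 9 and 14.4% of all. The cAMP response element, TGACGTCA, stood in 0 of 9 and 1.55% of all. C1ql2 had none of these letters, C1ql3 had 2 GC boxes, Wfs1 had 4 GC boxes and 1 CAGATG, and Tdo2 had 1 TATAAA, 229 bases before its start. A match is a run of letters and not a measured site.

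The comparison of P7 IP with P7 input asks what the tagged ribosomes hold relative to the whole tissue. All subfield genes but Tdo2 had lower TPM in every IP library than in both inputs, 8 of 9, where 56.3% of all genes tested did so too and 22.1% were higher in every IP library. By test, 7 of 8 were lower and 0 were higher, with 0 higher at an unadjusted p below 0.05 as well (limma). Over all genes 51.1% were called lower and 18.6% higher. The median change was -0.68 for the 8 genes and -0.33 over all genes.

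Prox1 had the greatest difference, with a mean of 1.39 ± 0.156 TPM in P7 IP (SD, n = 3) and 5.68 ± 0.832 TPM in P7 input (SD, n = 2), a log2 change of -1.48 (SE 0.14, adjusted p = 5.51e-06, limma). Zbtb20 averaged 2.08 ± 0.543 TPM in P7 IP (SD, n = 3) and 6.03 ± 0.155 TPM in P7 input (SD, n = 2), a change of -1.20 (SE 0.31, adjusted p = 0.00500, limma). Calb1 followed at -1.03 (SE 0.14, adjusted p = 7.40e-05, limma), its IP mean being 0.462 of the input mean. The IP-to-input ratio of means was 0.480 for C1ql2, 0.590 for Wfs1, 0.686 for Fibcd1, 0.706 for C1ql3 and 0.453 for Dsp. Tdo2 overlapped between IP and input, with a change of -0.20 (95% interval -0.58 to 0.19, adjusted p = 0.328, limma).

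How many genes were lower hung on the scaling. Median-of-ratios scaling and quantile normalisation moved the median of all genes up by 0.33 and 0.36 and turned the split over all genes to 32.9% higher with 32.3% lower and to 32.9% with 31.7%. With median-of-ratios scaling 4 of the 8 stayed lower (Prox1, C1ql2, Calb1 and Zbtb20), where Calb1 came to -0.64 and C1ql2 to -0.39. With quantile normalisation 2 did, Prox1 at -0.87 and Calb1 at -0.65. With a pseudocount of 5 TPM the changes of Prox1, Zbtb20 and C1ql2 were -0.74, -0.64 and -0.28, all called. C1ql3 and Fibcd1 came to 0.011 and 0.038 with quantile normalisation, neither called, and Tdo2, uncalled throughout, changed sign.

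**Figure D3:**
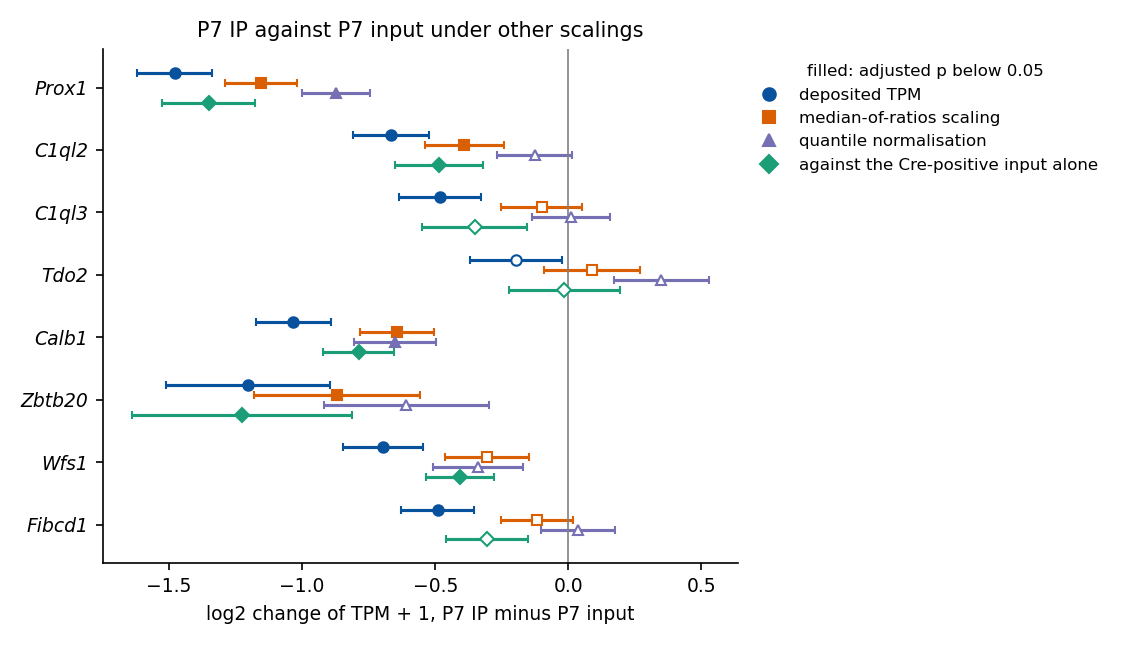
Change of log2(TPM + 1) with its standard error between P7 IP and P7 input (x axis) for the 8 subfield genes tested (y axis), with the deposited TPM, with median-of-ratios scaling, with quantile normalisation, and against the Cre-positive input alone; filled symbols passed an adjusted p of 0.05 (limma). Prox1 and Calb1 stay filled and left of 0 in all 4, while C1ql3 and Fibcd1 reach 0.011 and 0.038 with quantile normalisation.

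The 2 input libraries also differed. The Cre-negative input had the higher TPM for 8 of the 9 genes, Zbtb20 being the exception, where 46.2% of all genes tested were higher in it. Against the Cre-positive input alone, the change was -0.41 for Wfs1 (adjusted p = 0.0197, limma), -0.31 for Fibcd1 (adjusted p = 0.112, limma) and -0.35 for C1ql3 (adjusted p = 0.148, limma), so the calls on Fibcd1 and C1ql3 were lost. The C1ql3 call was also lost when the fit held only the groups compared (adjusted p = 0.0695, limma). Genotype and animal cannot be told apart in these 2 libraries.

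Markers of other cells moved with this comparison. All 15 inhibitory neuron markers and all 11 astrocyte markers were lower in P7 IP, where 51.1% of all genes were called lower. The summed inhibitory level was 127 to 141 TPM in P7 IP against 1142 to 1268 TPM in P7 input. Gad1, the inhibitory neuron enzyme that makes GABA, averaged 6.27 TPM in P7 IP and 69.6 TPM in P7 input, and no listed marker was at 0 in any library. The part of these cells in the lower IP levels of Prox1, Calb1 and Zbtb20, which some of them also make, was not tested. Across the IP ages the inhibitory sum was 127 to 141, 117 to 125 and 122 to 150 TPM at P7, P14 and P21. Of the 15 markers, 5 were higher and 3 lower at P21 than at P7, where 27.3% and 32.6% of all genes were. Gad1 was among the higher ones, with 10.7 TPM at P21 and 6.27 TPM at P7 (log2 change 0.70, adjusted p = 0.00304, limma). The sum over 8 excitatory neuron markers was 3301 to 3786 TPM in P7 IP, 6809 to 7653 TPM in P14 IP and 8098 to 9143 TPM in P21 IP. By gene, 4 of the 8 were higher and 3 lower at P21 than at P7, with a median of 0.03. In P7 IP against P7 input, 4 of these 8 were higher and 1 lower, where 18.6% and 51.1% of all genes were. Their median there was 0.26, against -0.33 over all genes. Slc17a7, the vesicular glutamate transporter, averaged 2046 TPM at P21 and 628 TPM at P7, and Neurod6 74.4 and 152 TPM. The oligodendrocyte lineage sum was 44.8 to 51.6, 311 to 419 and 505 to 723 TPM at the same ages, and 10 of its 11 markers were higher at P21 than at P7. Of the 11 astrocyte markers 10 were higher, with a median of 1.32, and of 8 microglia markers 7 were higher and 1 lower, with a median of 0.87 and sums of 21.6 to 26.9, 29.4 to 35.6 and 28.01 to 37.0 TPM at P7, P14 and P21. Other non-neuronal markers moved less at P21 against P7. Of 5 endothelial markers 1 was higher and 0 lower, and of 9 fibroblast and mural markers 0 were higher and 2 lower. Of 6 choroid plexus and ependyma markers 2 were higher and 1 lower. Most of the glial markers were higher at the ages at which the 5 subfield genes were higher, and their part in that rise was not tested.

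Other genes of the same subfields did not all follow. Beside the list counts at P21 against P7, here and below, stand 27.3% called higher and 32.6% called lower over all genes. Of 10 further dentate granule cell genes, 7 were higher and 2 lower at P21 than at P7, with a median of 0.61, and the rest did not pass the test. Trpc6, a cation channel, averaged 2.09 TPM at P21 and 0.444 TPM at P7, and Plk5, a kinase-related protein, 5.20 and 1.79 TPM. Akap7, an anchor of protein kinase A, went the other way, with 36.4 TPM at P21 and 164 TPM at P7 (log2 change -2.15, adjusted p = 1.15e-07, limma). In P7 IP against P7 input, 8 of these 10 were lower and 1 higher, where 51.1% and 18.6% of all genes were. Dock10, a guanine nucleotide exchange factor, was at 0.568 TPM in P7 IP and 3.24 TPM in P7 input, near Prox1 in size at -1.44, and Akap7 was the higher one, at 164 and 108 TPM. With quantile normalisation that count was 3 lower and 1 higher, where 31.7% and 32.9% of all genes were.

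Genes of the immature granule cell lineage ran opposite to the ligands and Calb1: 7 of 8 were lower at P21 than at P7 and 0 were higher, with 0 higher at an unadjusted p below 0.05 as well (limma), and their median was -1.92. Dcx, a microtubule protein of migrating and newborn neurons, averaged 3.29 TPM at P21 and 66.8 TPM at P7, a change of -3.98 (SE 0.12, adjusted p = 5.59e-09, limma). These genes also mark immature neurons of the cortex, and the 2 tissues cannot be told apart here. Of 13 transcription factors that pattern the hippocampus, 9 were lower at P21 than at P7 and 1 was higher, with a median of -0.61. Lhx2, which sets cortical and hippocampal fate in the embryo, averaged 45.9 TPM at P21 and 94.1 TPM at P7.

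Of 7 further CA1 genes, 5 were higher and 2 lower at P21 than at P7, with a median of 0.79. Wipf3, an actin regulator, averaged 101 TPM at P21 and 19.5 TPM at P7, and Spink8, a protease inhibitor gene, 12.5 and 2.33 TPM. The transcription factor Pou3f1 was lower, at 14.0 TPM at P21 and 35.6 TPM at P7. Among 6 CA2 genes tested of 8 listed, 3 were higher and 2 lower: Rgs14, a signalling regulator that marks CA2, averaged 28.2 TPM at P21 and 5.77 TPM at P7, and the neurotrophin Ntf3 2.58 and 13.9 TPM. Of 10 CA3 genes, 2 were higher and 5 lower, with a median of -0.15, and of 5 mossy cell genes tested of 6, 2 were lower. Calb2, the calretinin of mossy cells and of some inhibitory neurons, averaged 19.1 TPM at P21 and 49.4 TPM at P7, the reverse of Calb1. Of 9 upper-layer cortical genes, 3 were higher and 4 lower, with a median of -0.17, among them Cux2, at 35.4 TPM at P21 and 22.6 TPM at P7. Over all genes 27.3% were called higher and 32.6% lower, and no list was tested as a set against those shares. These counts for P21 against P7 stayed within 1 gene in each direction with the other scalings, except for the mossy cell genes, where 2 were also higher with median-of-ratios scaling.

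**Figure D4:**
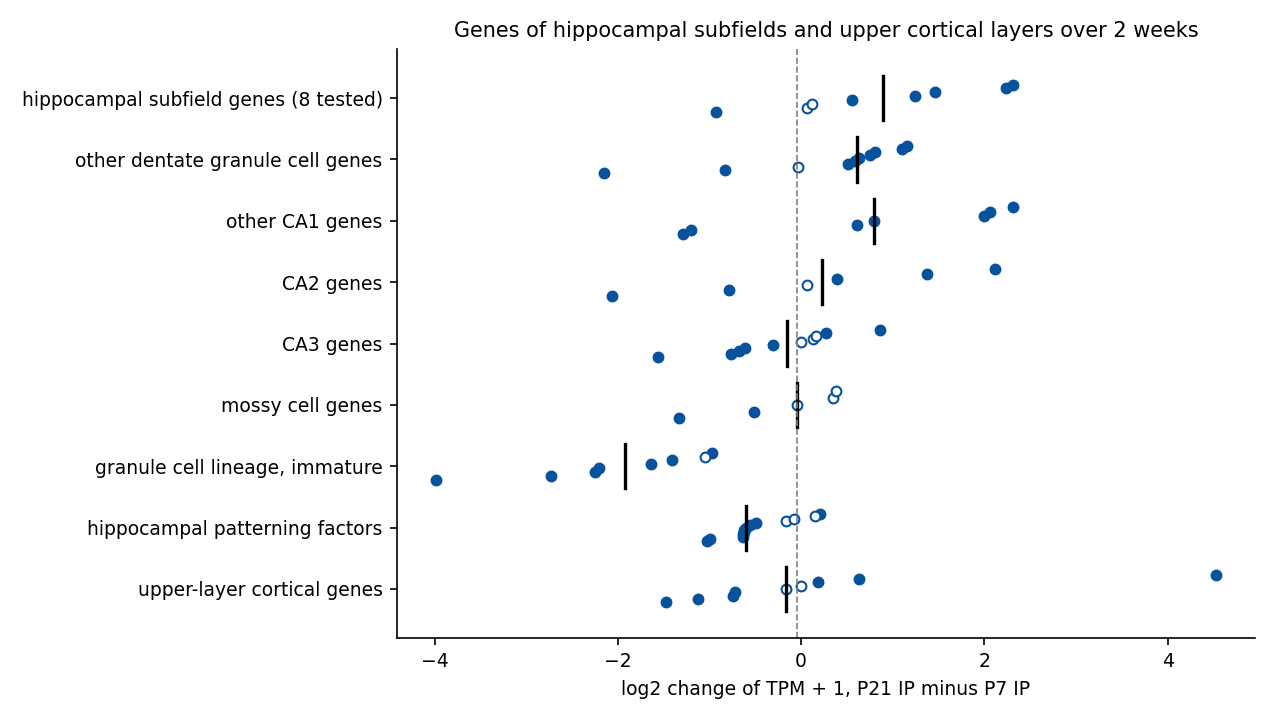
Change of log2(TPM + 1) between P21 IP and P7 IP (x axis) for the subfield genes and each related gene list (y axis); dots are genes, filled where the adjusted p was below 0.05 (limma), black bars are list medians and the dashed line is the median of all genes, -0.04. The immature granule lineage lies to the left, with a median of -1.92, and the subfield genes to the right, with a median of 0.90.

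The receptors and relatives of C1ql2 and C1ql3 changed in both directions. C1ql proteins bind the adhesion receptor Adgrb3 and, at mossy fibre synapses of the mouse, recruit the kainate receptor subunits encoded by Grik2 and Grik4. Adgrb3 averaged 35.0 TPM at P21 and 64.4 TPM at P7, a change of -0.86 (SE 0.07, adjusted p = 2.05e-06, limma). Grik2 averaged 9.84 TPM at P21 and 14.1 TPM at P7 (log2 change -0.48, adjusted p = 0.000275, limma), and Grik4 14.1 and 11.6 TPM (log2 change 0.27, adjusted p = 0.00770, limma). Nrxn3, a presynaptic neurexin, averaged 25.4 TPM at P21 and 12.9 TPM at P7. The third family member, C1ql1, differed from both: it averaged 3.90 TPM at P21 and 3.68 TPM at P7 (95% interval of the log2 change -0.31 to 0.45, adjusted p = 0.756, limma), and 3.68 TPM in P7 IP against 16.7 TPM in P7 input. Cbln1, a related secreted ligand of neurexins, was lower at P21, with 22.9 TPM against 73.8 TPM at P7, and Cbln2 higher, with 36.7 against 19.9 TPM. Over 8 of 9 listed ligands and receptors tested, C1ql2 and C1ql3 being left to their own account, 3 were higher and 4 lower at P21 than at P7.

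Among 7 EF-hand calcium buffers and sensors tested of 8, the family of Calb1, 5 were higher and 2 lower at P21 than at P7, with a median of 1.72. Cabp1, a neuronal calcium sensor, averaged 530 TPM at P21 and 107 TPM at P7, and Pvalb, parvalbumin, a marker of an inhibitory neuron class, 13.8 and 0.118 TPM. Among 9 genes of endoplasmic reticulum calcium and the unfolded protein response, the setting of Wfs1, 7 were higher and 1 lower at P21 than at P7, with a median of 0.38. Itpr1, an inositol trisphosphate receptor, averaged 32.4 TPM at P21 and 7.46 TPM at P7, and Atf6, a stress-activated transcription factor, 14.0 and 3.94 TPM. Xbp1, another such factor, was the lower one, at 47.3 TPM at P21 and 53.7 TPM at P7, and its call was lost with median-of-ratios scaling, which left 7 higher and 0 lower.

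Partners of Dsp and Tdo2 were mostly too low to test. Of 11 desmosome genes 4 were tested, and 2 were higher and 2 lower at P21 than at P7. Pkp2, a plakophilin that binds desmoplakin, averaged 5.42 TPM at P21 and 1.84 TPM at P7, and Jup, plakoglobin, 12.5 and 17.7 TPM. Of 11 tryptophan and kynurenine enzymes 5 were tested, and Afmid, which acts right after Tdo2, was the lower one, at 1.27 TPM at P21 and 3.58 TPM at P7 (log2 change -1.02, adjusted p = 0.00167, limma). No other enzyme of that list was called between these ages.

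Likeness of profile was measured as the root-mean-square difference of centred log2(TPM + 1) over the 11 libraries, against genes with a mean of at least 5 TPM. The libraries share ages and groups, so this is a description. Nearest to C1ql2 were Rtkn (0.0969), Pip5k1b (0.104) and Rilpl1 (0.114), and nearest to C1ql3 were Dlgap2 (0.0859), Sort1 (0.1) and Usp2 (0.107). Calb1 lay nearest to Hlf (0.119), Dlg1 (0.132) and Mbnl2 (0.132), and Wfs1 to Pdk2 (0.102), Ak4 (0.114) and Map2k1 (0.119). Prox1 lay nearest to Fermt2 (0.0802), Ccdc88c (0.0855) and Hmgn5 (0.0939), genes that, like it, are higher in input. For Fibcd1 the 3 were Crtac1 (0.0791), Diras2 (0.0864) and Sh3bgrl2 (0.0909). Tdo2 and Zbtb20 had no gene as close, their nearest being Coasy at 0.156 and Ddx51 at 0.222. Spread between libraries of an age enters this distance, and the SD was 48.8% of the mean for Tdo2 in P21 IP and 57.4% for Zbtb20 in P14 IP. The scale also shrinks changes of low genes, so near genes can differ in ratio: C1ql2 averaged 1.22 and 9.47 TPM in P7 and P21 IP, Rtkn 14.0 and 68.1 TPM.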

How the data were processed

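Polyadenylated RNA from cortex and hippocampus was sequenced after anti-GFP immunoprecipitation or from whole lysate, per the labels' protocols. The table the authors deposited holds TPM for 77179 gene IDs and 11 libraries. Tools named in the submitters' processing notes are Salmon 1.10.0, DESeq2 1.46.0 and fastp 1.0.1, with mm39 as the build. The role of each, the annotation, the use of strand and the summing of transcripts are not given there. TPM keep no depth, so depth is unknown and only the spread between libraries gives the precision. A gene that takes a larger share of a library lowers all others.

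Columns were matched to samples by name, and 50886 IDs had a symbol. The 19008 genes that reached 1 TPM in 2 or more libraries were tested on log2(TPM + 1), in R 4.3.3 with limma 3.58.1. A model of group means was fitted to all 11 libraries, leaving 7 residual degrees of freedom. Variances were moderated along a trend, and p-values were adjusted over all genes tested by the Benjamini-Hochberg method. The labels call the IP libraries of an age biological replicates. Promoter windows, motif letters and overlapping genes came from RefSeq tables of GRCm38.p6, another build than that of the values. Figures were drawn with matplotlib 3.10.9.

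The 22 gene lists, the list of the 9 genes included (201 entries, 194 distinct genes), were chosen with earlier results of these data known. Beside the 9 genes, the text names up to 2 genes with the greatest rise and 2 with the greatest fall among those called per list and comparison, 10 genes tied to the members or the design (C1ql1, Adgrb3, Grik2, Grik4, Jup, Gad1, Slc1a3, Neurod6, Slc17a7 and Rpl10a), and the 3 genes nearest in profile. Prox1os and Pter were added for their overlap. Alternatives were pseudocounts of 0.1 and 5 TPM, a mean of at least 5 TPM, no filter, 3 scalings, no trend, only the groups compared, a replicate block, and each library left out. The code was tested on simulated data.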

Additional observations from a re-analysis of the deposited data

Results flagged for a closer look

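For 4 genes the change between P14 and P21 differed from the change between P7 and P14, by a test of the difference itself (limma, adjusted over 19008 genes). The second change minus the first was -1.94 for Calb1, -1.14 for Wfs1, -1.08 for C1ql2 and -0.98 for C1ql3. Over all genes 16.8% were called lower and 7.46% higher in this test. The C1ql3 call was lost without P14 IP replicate 3 and with no filter on low values. In Calb1 the P14-to-P21 change was 0.18 and the P7-to-P14 change 2.13, and in Wfs1 the values were 0.16 and 1.30. The P14 libraries enter both changes with opposite signs.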

How the results depend on the processing

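Of 830 values of single genes over 45 results, 11 kept their sign but fell short of a threshold they had passed. Another 2 called values changed sign and were no longer called. The 3 that passed only in an alternative were Tdo2 for the difference of changes and Dsp at P21 against P14 and against P7. Dsp had no main test. A further 28 values changed sign in comparisons that were not called, all of them of Prox1, Zbtb20, Tdo2 or Fibcd1. The P7 IP minus P7 input count of 7 subfield genes was 4 with median-of-ratios scaling and 2 with quantile normalisation, where C1ql3 came to 0.011 (adjusted p = 0.952, limma) and Fibcd1 to 0.038 (adjusted p = 0.825, limma). With a mean of at least 5 TPM required, 8265 of all genes were called in that comparison against 13259, and 1 subfield gene against 2 at P21 minus P14, fewer genes being tested. Leaving out each library gave 3012 to 4698 genes for the second change minus the first, against 4613, with the lowest without P14 IP replicate 2. Calls on subfield genes between ages held under all alternatives that tested them; those on the difference of changes held too, except that of C1ql3. Same-numbered IP libraries deviated together only weakly (9 pairs, correlations 0.012 to 0.177, 1 over 0.1). All these correlations were above 0, and with 3 libraries an age they do not settle whether the numbers pair the libraries. With the replicate block, 7 subfield genes were called in P7 IP against input, 5 at P14 against P7, 2 at P21 against P14 and 6 at P21 against P7, the counts found without it. Depth is unknown, so no counting error can be given for genes near 1 TPM, such as Prox1, Tdo2 and Zbtb20.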
